A study of Mus musculus with 217 samples.

Results

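Cortical RNA of 12-month-old LacQ140_2M mice, in which mutant huntingtin was lowered from 2 months of age, was compared with that of LacQ140 mice in which it was never lowered. The 20 libraries of these groups, 10 mice a side, were taken by group, tissue and age from the 217 libraries of the series. The other 4 groups of 12-month cortex, which bring it to 60 libraries, shared the fit and served for reference. All mice were C57BL/6, each group held 5 females (F1 to F5) and 5 males (M1 to M5), and all the 12-month libraries carry the same batch label. Every mouse, the controls included, carried the transgene for the *Lac* repressor (LacIR) under the ubiquitous β-actin promoter. The mutant groups also carried 1 knock-in *Htt* allele with an expanded CAG repeat and *Lac* operators in its promoter (labelled Hdh(LacO-140Q/+)), and the wild-type groups were labelled Hdh(LacO-+/+). IPTG, a lactose analog that releases the repressor, was given from embryonic day 5. LacQ140 mice received it throughout, LacQ140_2M mice until 2 months of age, LacQ140_8M mice until 8 months and LacQ140_A mice never. WT + IPTG mice received it throughout and WT mice never. The LacQ140_2M and LacQ140 groups therefore differed in IPTG exposure as well as in m*Htt* repression. The knock-in line came from a pair of independently targeted embryonic stem cell clones. The counts per gene do not separate the mutant from the wild-type *Htt* allele, and the *Lac* system lowers m*Htt* in all tissues, not in brain alone.

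Huntingtin is a large scaffold protein of vesicle transport, autophagy and transcription, and its expanded polyglutamine tract causes Huntington disease. The striatum degenerates first, and the cortex, whose excitatory neurons project to the striatum, is also affected. Changes in cortical RNA of knock-in mice are known to be smaller than those of the striatum. Repressing the mutant allele from young adulthood asks how far such changes can be prevented when lowering begins before most of them appear.

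*Htt*, the gene targeted by the repressor (ENSMUSG00000029104, chr5:34761740-34912534, plus strand, GRCm38), was lower in LacQ140_2M cortex but did not pass the test across all genes. Levels in CPM, counts scaled to the normalised library total, were at the lowest 11.7, at the median 16.9 and at the highest 24.1 in LacQ140_2M mice. In LacQ140 mice they were 18.2, 23.4 and 31.5, so the groups overlapped. The means were 17.7 ± 4.7 and 23.9 ± 4.2 CPM (SD, n = 10 each), a log2 difference of −0.43 (SE 0.131, unadjusted p = 0.00169, adjusted p = 0.485, edgeR's quasi-likelihood test with Benjamini-Hochberg adjustment). The same gene stood at 17.0 ± 2.4 CPM in LacQ140_A, 18.0 ± 4.0 in LacQ140_8M, 26.4 ± 5.6 in WT + IPTG and 28.1 ± 7.6 in WT (SD, n = 10 each). LacQ140_2M and LacQ140_A, neighbours in that order, differed by 0.06 on the log2 scale (SE 0.132, adjusted p = 0.996). Against WT, *Htt* in LacQ140_2M differed by −0.66 (SE 0.131, adjusted p = 0.00715), and against WT + IPTG by −0.57 (SE 0.131, adjusted p = 0.0352). The latter call was lost without libraries F4 and M5, at the same difference of −0.57 (SE 0.135, adjusted p = 0.0976), and the difference from LacQ140 was then −0.43 (SE 0.135).

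**Figure D1:**
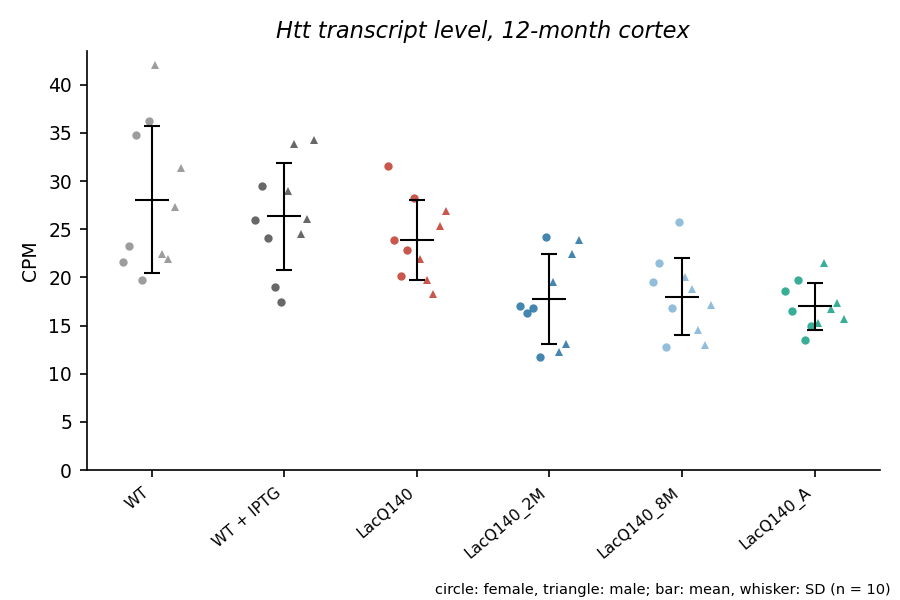
*Htt* CPM (vertical axis) in each of the 60 cortical libraries at 12 months, by group (horizontal axis), with females as circles, males as triangles, and the mean and SD as bars. The 3 groups without IPTG at the time of collection and with the mutant allele had means of 17.0 to 18.0 CPM, and LacQ140 a mean of 23.9 CPM.

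The *Htt* transcript is long, 13215 nt in its longest annotated form, and its level moved with a property of the libraries. In this cortex the main axis of variation among libraries followed the slope of log2 CPM on log2 transcript length, a measure that falls where long transcripts are under-represented. The 3 LacQ140_2M libraries with the lowest slopes (−0.54 in F4, −0.49 in M2 and −0.48 in M3) also had the lowest *Htt* of their group (11.7, 12.3 and 13.1 CPM). In LacQ140, the library with the lowest slope (M3, −0.39) had the lowest *Htt* (18.2 CPM) and the library with the highest (F1, −0.12) had the highest (31.5 CPM). The slope averaged −0.34 ± 0.13 in LacQ140_2M and −0.27 ± 0.08 in LacQ140 (SD, n = 10 each), a difference within the spread of the mice (two-sided permutation test, p = 0.165, adjusted p = 0.334 over 3 measures). With the slope as a covariate, the log2 fold change of *Htt* was −0.25 (SE 0.067, adjusted p = 0.149), and the difference from WT was −0.63 (SE 0.066, adjusted p = 5.32e-12). In the striatum of the same groups *Htt* differed by −0.15 (SE 0.069, adjusted p = 0.559), and in 6-month cortex, in other mice, by −0.29 (SE 0.072, adjusted p = 0.291).

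Summed counts ran from 33391114 to 44397947 over the 60 libraries. Between LacQ140_2M and LacQ140 neither summed count (two-sided permutation test, p = 0.223, adjusted p = 0.334) nor the share of mitochondrial counts (p = 0.771) differed beyond the spread between mice. Library M2 of LacQ140_2M had the highest mitochondrial share, 15.4%, against a median of 6.66% in its group. Markers of cortical excitatory neurons summed to 908 to 1603 CPM in LacQ140_2M and 1150 to 1463 CPM in LacQ140, and those of striatal spiny neurons to at most 451 CPM, against at least 5640 CPM in the striatum of these groups. However, 2 LacQ140_2M libraries stood apart through genes of other cells. F4 was the highest of the 60 libraries for 11 of 17 adipocyte markers, and M5 for 15 of 19 T cell markers. Further fits left both libraries out.

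Of 34493 genes tested, 29 were called in LacQ140_2M against LacQ140 (0.0841% of those tested), at an adjusted p under 0.05 with a change of 20% or more. All 29 had risen (0.0841%) and 0 had fallen (0%). At an unadjusted p below 0.05 stood 1902 genes, 1207 of them higher (3.5% of those tested) and 695 lower (2.01%). Leaving out 1 library at a time moved this number from 1249 without F4 to 2937 without M4 of LacQ140_2M. It was 1356 without F4 and M5. Without F4 and M5 only 2 genes were called (0.00582%), the pseudogenes *Gm2446* and *Gm5537*. DESeq2 called 0 genes, with 1528 at an unadjusted p below 0.05. When DESeq2 was kept from replacing outlying counts it called 3 genes, *Ccl5*, *Fabp4* and *Taf9*.

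**Figure D2:**
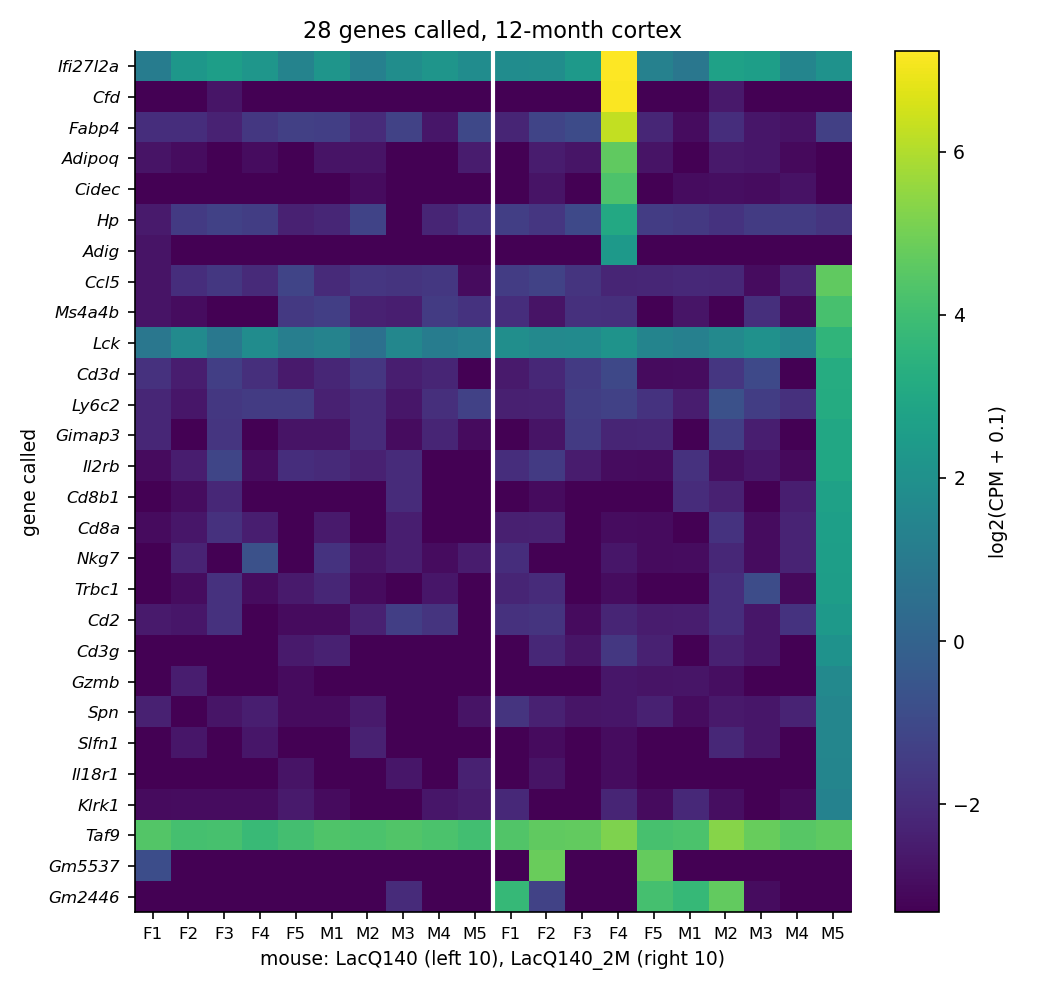
Level of each of 28 called genes (rows) as log2(CPM + 0.1) in the 10 LacQ140 libraries (left) and the 10 LacQ140_2M libraries (right), named by sex and number. One block of 7 genes is high in F4 and another of 17 in M5, with *Lck* also highest in M5, and *Taf9*, *Gm5537* and *Gm2446* form the last rows.

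Of the 28 called genes described here, 25 owed more than 50% of their summed LacQ140_2M level to 1 library. In F4 there were 7: the fat cell hormone *Adipoq*, the fatty acid carrier *Fabp4*, the secreted protease *Cfd* (adipsin), the lipid droplet protein *Cidec*, the adipocyte differentiation gene *Adig*, the haptoglobin gene *Hp* and the interferon-induced *Ifi27l2a*. F4 held between 78.1 and 100% of the group's sum for each, at levels of 5.13 to 150 CPM. *Fabp4*, for example, had 77.3 CPM in F4, whereas the next highest LacQ140_2M library had 0.426 CPM and the highest LacQ140 library 0.385 CPM. On the log2 scale it differed by 5.14 (SE 0.798, adjusted p = 0.000149), and without F4 and M5 it was −0.42 (adjusted p = 0.983). *Cfd* had 146 CPM in F4 and at most 0.0635 CPM in any of the 59 other cortical libraries. Not all markers of fat followed: the perilipin *Plin4*, the hormone-sensitive lipase *Lipe* and the acyl-CoA synthetase *Acsl1* stood at 6.44, 3.32 and 24.8 CPM in F4, below the medians of 6.50, 4.11 and 26.4 CPM of the 19 other libraries of both groups. The brown fat gene *Ucp1* was at 0.0558 CPM there.

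M5 was the library that carried 17 genes, and each was highest in M5 of all 60 cortical libraries. They comprised the CD8 co-receptor chains *Cd8a* and *Cd8b1*, the CD3 chains *Cd3d* and *Cd3g*, the T cell receptor constant gene *Trbc1*, *Cd2*, *Ms4a4b*, *Gimap3*, *Spn*, *Ly6c2*, *Il2rb*, *Il18r1* and *Slfn1*. The cytotoxic effector genes *Gzmb*, *Nkg7*, *Klrk1* and *Ccl5* completed them. M5 held 78.3 to 97.2% of the group's sum, at 2.49 to 25.0 CPM. *Ccl5*, a chemokine of effector T cells, stood at 25.0 CPM in M5, at 0.320 CPM in the next LacQ140_2M library and at no more than 0.3498 CPM in LacQ140. *Cd8a* was at 6.19 CPM in M5 and at most 0.495 CPM in any other cortical library. *Lck*, a T cell kinase that neurons also express, was at 12.0 CPM in M5, against 2.29 to 4.24 CPM in the other LacQ140_2M libraries and 1.39 to 3.43 CPM in LacQ140 (log2 fold change 0.80, SE 0.183, adjusted p = 0.0485). *Lck* differed by 0.39 without F4 and M5 (SE 0.149, adjusted p = 0.983). The helper T cell co-receptor *Cd4* was at 0.888 CPM in M5, against at most 1.17 CPM in the 19 other libraries of both groups. *Trbc2* was at 41.8 CPM, beside a median of 42.2 CPM in those 19.

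The labels give the same animal number to the cortex and striatum of 57 mice, so that both libraries could be followed into the striatum of their own mouse. The genes of M5 went with the mouse: all 17 were highest in M5 of the 57 striatal libraries, at 0.720 to 12.6 CPM. Summed over the 17 genes, M5 had 124 CPM in cortex and 72.2 CPM in striatum, and the other mice of both groups had at most 2.25 and 2.55 CPM. Of these 17 genes, 9 were also called in LacQ140_2M against LacQ140 in striatum, where 215 of 35386 genes were called (0.608%). The genes of F4 did not go with the mouse. Their sum was 431 CPM in the cortex of F4 and 1.91 CPM in its striatum, within the range of 0.822 to 1.97 CPM of the 18 other striatal libraries of both groups. *Fabp4* was called in striatum as well (log2 fold change 1.03, SE 0.240, adjusted p = 0.0127), but at 0.433 CPM in F4 and at most 0.758 CPM in any LacQ140_2M mouse. The source of these transcripts was not tested.

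**Figure D3:**
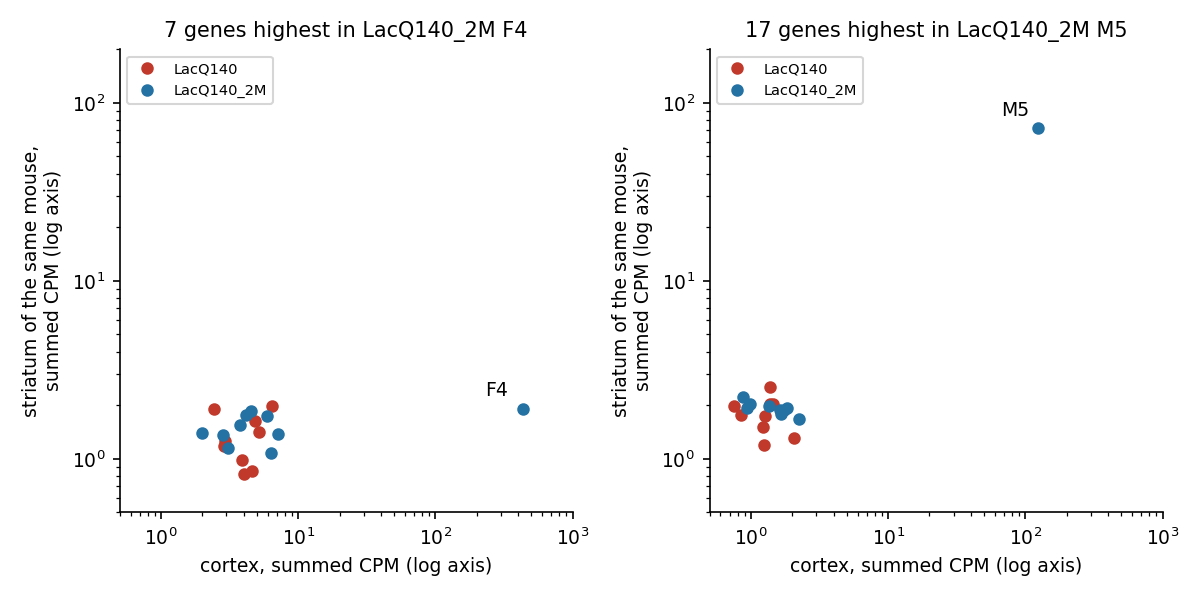
Summed CPM of the 7 genes highest in F4 (left) and the 17 highest in M5 (right), in cortex (horizontal, log axis) and in the striatum of the same mouse (vertical, log axis), for LacQ140 (red) and LacQ140_2M (blue) mice. F4 stands apart in cortex alone (431 against 1.91 CPM), M5 in both tissues (124 and 72.2 CPM).

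Called members occurred in 2 of 33 lists, with 5 of 17 adipocyte markers and 9 of 19 T cell markers risen, beside 0.0841% of all genes. Their median log2 fold changes were 1.99 and 1.41, beside 0 over all genes tested. Without F4 and M5 no member of either list was called and the medians were 0.16 and 0.10. With the length slope as a covariate no adipocyte marker was called and the median was 0.36, while 10 T cell markers were called with a median of 1.49. F4 had the lowest slope of the libraries of both groups, −0.54, whereas that of M5 was −0.25. For the adipocyte markers the slope and library F4 were therefore not tested apart in that fit. The summed level of the adipocyte list was 435 CPM in F4, against 100.2 to 127 CPM in the other LacQ140_2M libraries and 87.0 to 117 CPM in LacQ140. The T cell list summed to 151 CPM in M5, against 41.8 to 76.8 and 44.1 to 59.4 CPM. In bulk RNA, more or fewer cells of a type and more or less RNA per cell cannot be told apart. No member of the lists for B cells, neutrophils, blood, muscle, pituitary or meningeal fibroblasts was called.

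The transcription factor gene *Taf9*, which encodes a subunit of the general factor TFIID (chr13:100651579-100656060, plus strand), was a called gene with no more than 15.2% of its LacQ140_2M sum in any library. It had at the lowest 18.0, at the median 24.9 and at the highest 39.7 CPM in LacQ140_2M, and 14.1, 18.3 and 21.1 CPM in LacQ140. F1, F5 and M1 of LacQ140_2M lay within the LacQ140 range, and the other 7 lay above it. The groups differed by 0.52 on the log2 scale (SE 0.107, adjusted p = 0.0123). *Taf9* was highest in M2 (39.7 CPM) and F4 (36.7 CPM), the libraries with the lowest length slopes, and with the slope as a covariate the difference was 0.38 (SE 0.083, adjusted p = 0.0150). It was not called without F4 and M5 (0.45, adjusted p = 0.470). Its reads may be shared with *Ak6*, which overlaps it on the same strand. Its level was 22.8 ± 3.3 CPM in LacQ140_A, 23.1 ± 5.0 in WT and 21.8 ± 2.6 in WT + IPTG (SD, n = 10 each). In striatum the difference was −0.19 (SE 0.097, adjusted p = 0.627), and in 6-month cortex 0.05 (SE 0.124, adjusted p = 0.955).

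The remaining 2 genes were either absent or high in single mice of several groups. *Gm2446*, an unprocessed pseudogene (chr12:55217176-55226072, minus strand), had 13.5, 17.4, 13.2 and 25.7 CPM in F1, F5, M1 and M2 of LacQ140_2M and at most 0.320 CPM in the other 6. In LacQ140 its highest value was 0.145 CPM, but WT + IPTG reached 25.7 CPM and WT 10.5 CPM. It was called in LacQ140_2M against LacQ140 (adjusted p = 0.00864) and, in the other direction, in LacQ140 against WT + IPTG (adjusted p = 0.0332), which share the LacQ140 libraries. *Gm5537*, a processed pseudogene (chr3:58102996-58104247, minus strand), had 28.1 and 26.9 CPM in F2 and F5 and 0 in the other 8 LacQ140_2M libraries. LacQ140 had 0.469 CPM in F1 and 0 in the rest. In striatum *Gm5537* ranged from 0 to 32.5 CPM in LacQ140_2M and from 0 to 29.7 CPM in LacQ140. Reads of pseudogenes can be shared with near-identical copies, so both values are uncertain.

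Because LacQ140_2M mice had no IPTG after 2 months, the effect of its absence was measured in wild-type mice. WT against WT + IPTG gave 0 calls in edgeR (0%), with 2001 genes at an unadjusted p below 0.05, 15 calls in DESeq2 and 128 in edgeR with the length slope as a covariate. The contrast of LacQ140_2M against LacQ140 with WT against WT + IPTG subtracted, which tests lowering beyond IPTG absence, gave 0 calls (0%), 1473 genes at an unadjusted p below 0.05 and 1 call in DESeq2. *Htt* differed by −0.52 in this contrast (SE 0.184, unadjusted p = 0.00637, adjusted p = 1) and *Taf9* by 0.43 (SE 0.151, unadjusted p = 0.00535, adjusted p = 1). In 6-month cortex LacQ140_2M against LacQ140 gave 0 calls in edgeR (0%), with 3498 of 35987 genes at an unadjusted p below 0.05. The difference between these ages was not tested.

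The next question was where LacQ140_2M stood for the genes that separated LacQ140 from WT + IPTG. LacQ140 differed from WT + IPTG in 31 genes (0.0899%), of which 8 had risen and 23 had fallen. The number of calls was 64 in DESeq2, 130 with the length slope as a covariate and 441 with only the 2 groups compared. LacQ140_2M against LacQ140 and LacQ140_A against LacQ140 share their LacQ140 libraries with the comparison that chose the 31 genes. The levels of the 12 with the smallest p are therefore described by group, and their movement from LacQ140 is given without a test.

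Of these 12 genes, 5 had risen in LacQ140, and their levels were as follows. *Abhd1*, which encodes a protein of the alpha/beta hydrolase family and overlaps *Preb* on the opposite strand, had at the lowest 4.38, at the median 6.32 and at the highest 8.37 CPM in LacQ140_2M. In LacQ140 it had 5.03, 7.01 and 7.72 CPM, so the ranges overlapped almost in full (log2 fold change −0.08, SE 0.134). WT + IPTG stood at 2.70 ± 1.26 and WT at 2.59 ± 0.563 CPM (SD, n = 10 each). *Abhd1* lies on the chromosome of *Htt* (chr5:30950066-30955091, plus strand), so that effects of the mutant allele and of DNA linked to it cannot be told apart. The tight junction gene *Cldn14* had 3.004 ± 1.16 CPM in LacQ140_2M and 2.89 ± 0.643 in LacQ140, beside 1.02 ± 0.230 in WT + IPTG. *Enpp6*, a choline phosphodiesterase gene of newly forming oligodendrocytes, had 8.13 ± 1.81 and 9.06 ± 1.85 CPM, beside 5.05 ± 1.29 in WT + IPTG. *Slc45a3* had 0.570 ± 0.270 and 0.703 ± 0.187 CPM, beside 0.189 ± 0.0904, and the choline dehydrogenase gene *Chdh* had 2.49 ± 0.693 and 3.19 ± 0.903 CPM, beside 1.62 ± 0.361. The log2 fold changes of *Cldn14*, *Enpp6*, *Slc45a3* and *Chdh* in LacQ140_2M against LacQ140 were 0.04, −0.16, −0.26 and −0.35.

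The 7 others of the 12 had fallen in LacQ140, and their LacQ140_2M means stood between those of LacQ140 and WT + IPTG. Among the 5 risen genes the same was so of all but *Cldn14*, and risen and fallen genes were not tested against each other. *Tsc22d3*, a glucocorticoid-induced leucine zipper gene, had 154 ± 36.1 CPM in LacQ140_2M and 121 ± 21.3 in LacQ140, beside 192 ± 21.2 in WT + IPTG and 171 ± 27.2 in WT (SD, n = 10 each). LacQ140_2M differed from LacQ140 by 0.35 on the log2 scale (SE 0.106). *Smim3*, a small membrane protein gene, ranged from 25.1 to 48.8 CPM with a median of 34.0 in LacQ140_2M and from 16.5 to 31.7 CPM with a median of 25.8 in LacQ140. On the log2 scale the groups differed by 0.49 (SE 0.133), and their ranges overlapped. The myelin protein gene *Mal* had 410 ± 74.0 and 350 ± 38.0 CPM, beside 491 ± 89.6 in WT + IPTG. The antisense transcript *Gm48678*, opposite *Itsn2*, had 1.89 ± 0.982 and 0.973 ± 0.512 CPM, beside 2.69 ± 1.24, and *Fam83d* had 1.23 ± 0.432 and 0.879 ± 0.314 CPM, beside 2.04 ± 0.634. The alarmin gene *Il33* and the prostaglandin synthase gene *Ptgs2* completed the 12, at log2 fold changes of 0.15 and 0.23. With lowering from conception, LacQ140_A against LacQ140 called 15 genes (0.0435%). There *Tsc22d3* differed by 0.54 (SE 0.106), *Smim3* by 0.74 (SE 0.133), *Gm48678* by 1.29 (SE 0.277) and *Abhd1* by 0.01 (SE 0.134). A rise in LacQ140_A of genes chosen as low in the same LacQ140 libraries is in part fixed by that choice. LacQ140_2M and LacQ140_A differed in the start of lowering and in IPTG exposure before 2 months, which cannot be told apart. Their comparison called 29 genes (0.0841%), and 1 without F4 and M5. These 4 genes were not among the 29.

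**Figure D4:**
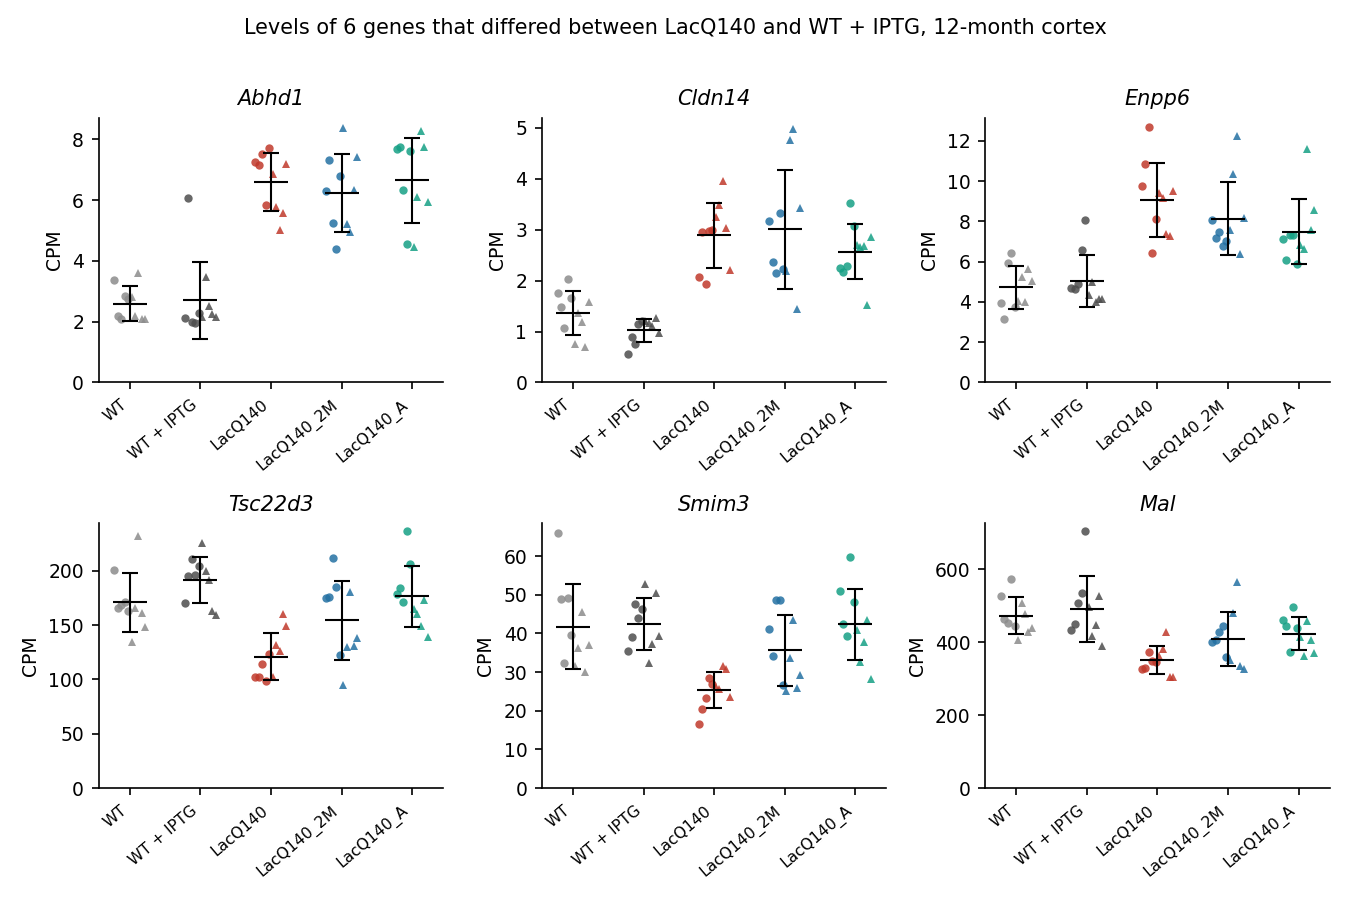
CPM (vertical axis) of 6 genes called in LacQ140 against WT + IPTG, in 5 groups of 10 mice (horizontal axis), with circles for females, triangles for males, and the mean and SD as bars. *Abhd1*, *Cldn14* and *Enpp6* (top) had means of 6.23, 3.004 and 8.13 CPM in LacQ140_2M and 6.58, 2.89 and 9.06 in LacQ140. *Tsc22d3*, *Smim3* and *Mal* (bottom) had LacQ140_2M means between those of LacQ140 and WT + IPTG.

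The comparison of LacQ140_2M with WT shares no library with LacQ140 against WT + IPTG, and neither of its groups received IPTG after 2 months. It called 31 genes (0.0899%), and without F4 and M5 it called 6 (0.0175%). Of the 31 genes called in LacQ140 against WT + IPTG, 29 had the same direction in LacQ140_2M against WT, and 17 of these had an unadjusted p below 0.05, beside 4.44% of all genes tested. With F4 and M5 left out, 29 again had the same direction and 14 of these had such a p, beside 4.68% of all genes. *Abhd1* (log2 fold change 1.27, SE 0.145, adjusted p = 1.59e-08), *Cldn14* (1.14, SE 0.184, adjusted p = 0.000202), *Enpp6* (0.78, SE 0.133, adjusted p = 0.000538), the tetraspanin gene *Cd82* (0.61, SE 0.108, adjusted p = 0.00118) and the matrix protein gene *Smoc1* (0.61, SE 0.136, adjusted p = 0.0296) were called in both, 16.1% of each list. All 5 had risen. Without F4 and M5 the first 4 remained called and *Smoc1*, at a difference of 0.61 (SE 0.140), did not (adjusted p = 0.121). *Tsc22d3* (−0.15, SE 0.106, adjusted p = 1), *Smim3* (−0.22, SE 0.132, adjusted p = 1) and *Mal* (−0.21, SE 0.087, adjusted p = 0.988) were not called. LacQ140_2M against WT + IPTG, which shares the WT + IPTG libraries with the choice of these genes, called 56 genes (0.162%). Its log2 fold changes of *Abhd1*, *Cldn14*, *Enpp6*, *Cd82* and *Smoc1* were 1.202, 1.54, 0.69, 0.56 and 0.69.

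The sexes were then separated. In the females alone, 5 mice a side, 12 genes were called (0.0369%), 10 risen and 2 fallen, and these are named here after their values were seen. *Fabp4*, *Adipoq* and *Cfd* rested on F4. The 9 others were the arrestin-domain gene *Arrdc2*, the stress-induced mTOR inhibitor *Ddit4*, the zinc finger gene *Zfp189*, the kinase gene *Sgk1*, *Tsc22d3*, the kinase gene *Dyrk3*, the adenosine deaminase gene *Ada*, and, fallen, the transcription factor gene *Bach2* and the potassium channel subunit gene *Kcng1*. In the males alone 14 genes were called (0.0431%), all of them among the 29 and highest in M5. Without F4 the females gave 4 calls (0.0123%), *Arrdc2*, *Ddit4*, *Sgk1* and *Gm5537*. Without M5 the males gave 0 in edgeR (0%), with 939 genes at an unadjusted p below 0.05.

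*Arrdc2* had 21.7, 21.98, 25.3, 17.2 and 20.6 CPM in LacQ140_2M females F1 to F5 and 10.2, 8.31, 11.0, 12.7 and 12.9 CPM in LacQ140 females, so that the groups did not overlap. Males of these groups overlapped, at 9.11 to 20.5 and 8.47 to 21.9 CPM. Females of the 2 groups differed by 0.95 on the log2 scale (SE 0.139, adjusted p = 0.000997) and males by −0.23 (SE 0.184, adjusted p = 1). *Sgk1*, a glucocorticoid- and serum-induced kinase gene, had 138, 148, 155, 108 and 123 CPM in LacQ140_2M females and 57.7, 66.6, 88.8, 73.0 and 95.5 CPM in LacQ140 females. The female groups again did not overlap, and the males did (48.0 to 123 and 58.2 to 134 CPM). Both genes were named for their calls in these females, so the lack of overlap is in part fixed by that choice. *Ddit4* stood at 68.9 ± 7.5 CPM in LacQ140_2M females and 38.7 ± 5.5 in LacQ140 females (SD, n = 5 each), and at 50.3 ± 14.3 and 50.4 ± 13.8 CPM in males. *Bach2* was at 0.91 ± 0.27 and 2.34 ± 0.48 CPM in females and at 2.10 ± 0.38 and 1.73 ± 0.17 CPM in males.

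The difference between the sexes in LacQ140_2M against LacQ140 was called for 0 genes in edgeR (0%), with 1225 at an unadjusted p below 0.05. Within each sex, lowering and the absence of IPTG were not tested apart. The log2 fold change in females exceeded that in males by 1.19 for *Arrdc2* (SE 0.243, adjusted p = 0.0699), by 1.16 for *Sgk1* (SE 0.245, adjusted p = 0.103) and by 0.89 for the transcription factor gene *Ovol2* (SE 0.176, adjusted p = 0.0699). F4 had the lowest *Arrdc2* and *Sgk1* of the LacQ140_2M females, so leaving it out raises the female difference of both genes. Without F4 and M5, 3 genes were called: *Arrdc2* (1.44, SE 0.244, adjusted p = 0.00416), *Sgk1* (1.39, SE 0.248, adjusted p = 0.00819) and *Ovol2* (0.98, SE 0.184, adjusted p = 0.0140). *Bach2* differed by −1.63 (SE 0.330, adjusted p = 0.0699), and by −1.47 without these libraries (adjusted p = 0.493). Of 14 genes listed as induced by glucocorticoids, *Sgk1*, *Tsc22d3* and *Ddit4* were called in the female fit, 3 of 14 beside 0.0369% of all genes, with a list median of 0.50 in females and −0.03 in males. The medians were 0.61 in females without F4 and −0.13 in males without M5. Without F4 the call of *Tsc22d3* was lost (0.66, SE 0.136, adjusted p = 0.0982). Over both sexes 0 of the 14 were called and 5 were higher at an unadjusted p below 0.05, beside 3.5% of all genes. There were again 5 without F4 and M5, beside 2.14%, and with the length slope as a covariate there were 10, beside 2.6%. Markers of several other cell types also had unlike medians in females and males, with none called and the difference not tested. Of 6 red blood cell markers 5 were higher in the female fit at an unadjusted p below 0.05, beside 3.52% of all genes, with a median of 0.84 in females and 0.093 in males. They summed to 803 to 2336 CPM in LacQ140_2M females and 299 to 984 CPM in LacQ140 females. The 9 choroid plexus genes had medians of −1.37 in females and 0.20 in males, and sums of 8.91 to 384 and 16.3 to 795 CPM in the females of these groups. Without M5 their median in males was −1.78, with all 9 below 0, and without F4 that in females was −1.48. The unlike medians of the sexes for this list were thus lost without these libraries. For 10 markers of meningeal fibroblasts the medians were −0.25 and 0.49, for 15 of endothelial cells and pericytes −0.24 and 0.26, and for 7 of pituitary −1.46 and 0.034, in females and males. With F4 left out of the females and M5 out of the males, they were −0.17 and 0.27, −0.093 and 0.16, and −1.19 and −0.52. In males 5 of the meningeal and 3 of the endothelial and pericyte markers were higher at an unadjusted p below 0.05, beside 1.8% of all genes. Without M5 these were 3 and 0, beside 1.59%. In females 2 of each were lower, beside 2.6%, and again 2 of each without F4, beside 1.69%. The part of these markers in the female result was not tested. In WT + IPTG females *Sgk1* stood at 123 ± 18.1 CPM and *Ddit4* at 47.3 ± 4.5 (SD, n = 5 each), and *Arrdc2* at 12.5 ± 2.3.

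**Figure D5:**
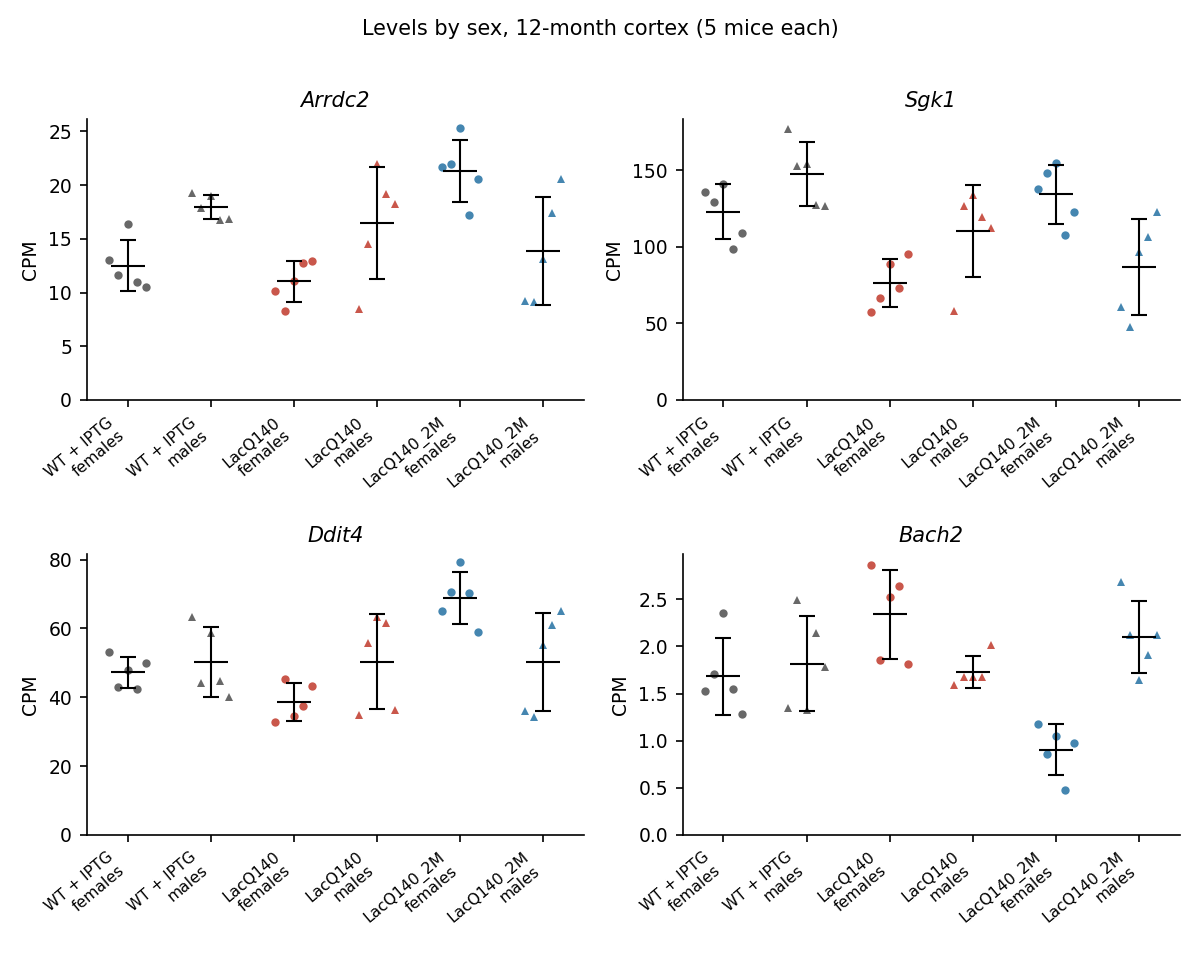
CPM (vertical axis) of *Arrdc2*, *Sgk1*, *Ddit4* and *Bach2* in females (circles) and males (triangles) of WT + IPTG, LacQ140 and LacQ140_2M, 5 mice each, with the mean and SD as bars. The first 3 genes were higher, and *Bach2* lower, in LacQ140_2M than in LacQ140 females (*Arrdc2* 21.4 against 11.0 CPM), while the males overlapped.

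In the striatum of the same females *Arrdc2* was at 41.6 to 66.4 CPM in the 5 LacQ140_2M females and at 18.6 to 32.8 CPM in the 4 LacQ140 females with a striatal library. *Sgk1* was at 187 to 215 CPM and 69.2 to 146 CPM, so that neither gene overlapped between the female groups. Striatal males overlapped, at 23.6 to 45.7 and 24.5 to 47.3 CPM for *Arrdc2* and 75.5 to 199.8 and 71.9 to 212 CPM for *Sgk1*. These are the same animals, not further replicates, and both genes were chosen by their values in the cortex of these mice. The share of all genes without overlap was not counted in either tissue. In 6-month cortex, in other mice, *Arrdc2* stood at 21.0 ± 2.4 CPM in LacQ140_2M females and 28.1 ± 4.9 in LacQ140 females, and *Sgk1* at 138 ± 28.1 and 131 ± 13.9 CPM (SD, n = 5 each). The sexes were not tested apart in those tables.

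No other list had a called member over both sexes. Of 20 immediate early genes, which neurons switch on with activity, 18 had a log2 fold change below 0 and 5 stood at an unadjusted p below 0.05, all lower, beside 2.01% of all genes lower at that level. Their median was −0.20, beside 0 over all genes. In females alone the median was −0.38 with 7 lower at that level (2.6% of all genes), and in males it was −0.091 with 0 lower and 1 higher. The difference between the sexes was not tested for the list. *Fosb* had 5.21 ± 1.26 CPM in LacQ140_2M and 7.09 ± 2.54 in LacQ140 (log2 fold change −0.44, SE 0.156, adjusted p = 0.754), and *Fos* had 20.1 ± 5.2 and 27.9 ± 11.1 CPM (−0.47, SE 0.210, adjusted p = 0.853; SD, n = 10 each). In WT, which like LacQ140_2M had no IPTG at collection, *Fosb* was at 5.53 ± 1.38 and *Fos* at 19.1 ± 5.4 CPM. In WT + IPTG they were at 7.17 ± 1.38 and 27.8 ± 11.5 CPM, and beyond IPTG absence *Fosb* differed by −0.07 and *Fos* by 0.06.

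Of 33 nuclear genes of oxidative phosphorylation, 31 had a log2 fold change above 0, with a median of 0.15 and 1, the succinate dehydrogenase subunit gene *Sdhb*, at an unadjusted p below 0.05 (0.17, SE 0.084, adjusted p = 0.853), beside 3.5% of all genes. This direction turned with the length slope as a covariate, where 1 of the 33 was above 0 and 32 were below, with a median of −0.081. Of 13 genes of lipid fuel use 4 were higher at that p, beside the same 3.5%. The smallest p was that of *Txnip* (0.45, SE 0.131, adjusted p = 0.405). With the length slope as a covariate there were again 4 (2.6% of all genes), and without F4 and M5 there was 1 (2.14%). The clock gene *Ciart* differed by 0.45 (SE 0.132, adjusted p = 0.422) and *Arntl* by −0.21 (adjusted p = 0.853). The lists for cells of the cortex itself had medians near 0. These were −0.13 for 20 markers of cortical excitatory neurons, 0.02 for 12 of interneurons, −0.09 for 12 of astrocytes, 0.03 for 15 of oligodendrocytes and 0.10 for 17 of microglia. The median was −0.07 for 22 synaptic genes, 5 of them above 0, and −0.07 for 6 neurofilament genes, 1 of them above 0. With the slope as a covariate the median turned to 0.046 for the synaptic genes, 19 of them above 0, and to 0.056 for the neurofilament genes, 5 of them above 0. For the astrocyte markers it turned to 0.045, and for the other 4 of these cell lists it kept its sign. Without the slope, medians in females and males were −0.22 and 0.094 for astrocytes and −0.15 and 0.19 for oligodendrocytes. They were −0.20 and −0.051 for cortical excitatory neurons, −0.0012 and 0.047 for interneurons and 0.014 and 0.12 for microglia. The sexes were not tested against each other for these lists.

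Choroid plexus genes differed widely among the cortical libraries. Their sum, most of it the transthyretin gene *Ttr*, was at the lowest 5.68, at the median 19.0 and at the highest 1631 CPM in LacQ140_2M, and 6.77, 575 and 1115 CPM in LacQ140. The highest value was that of M5, the library that also carried the T cell genes. Medians of the sum were 15.1 CPM in LacQ140_A, 8.35 in LacQ140_8M, 12.2 in WT and 19.2 in WT + IPTG. The LacQ140 median of 575 CPM was thus the highest of all groups. In LacQ140 against WT + IPTG all 9 genes were above 0, with a median log2 fold change of 0.65. None of the 9 genes was called. With all libraries their median log2 fold change in LacQ140_2M against LacQ140 was −0.44. Without F4 and M5 it was −1.67, with all 9 lower at an unadjusted p below 0.05, beside 1.8% of all genes. F4 had the second highest sum of LacQ140_2M, 384 CPM, so leaving out both libraries lowers this group by construction. The 9 genes mark 1 tissue and are not 9 separate results. *Ttr* in M5 reached 1594 CPM. Their part in the T cell result was not tested. In striatum, where M5 was again highest for the 17 genes, the highest choroid plexus sum of LacQ140_2M was 178 CPM and belonged to F5.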

How the data were processed

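Total RNA of cortex and striatum was sequenced by the authors as paired-end reads on an Illumina NovaSeq instrument. The values that the authors deposited are estimated counts per gene, made from reads aligned to GRCm38. The aligner, counter and annotation are not given in the sources used here. Since 30.6% of nonzero values in 12-month cortex were not whole, they were rounded before testing. Gene names and positions came from a GENCODE annotation of GRCm38, which held 54495 of 54532 gene IDs. Groups followed the labels. No pair of libraries held the same counts within sampling noise: the closest of 90 pairs within the 2 groups had a chi-square per degree of freedom of 9.09.

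Genes with at least 1 count over the 60 libraries of 12-month cortex were fitted in edgeR 4.0.16 (R 4.3.3, TMM, quasi-likelihood test, group as the only term), and each difference was a contrast of that fit. A gene was called at a Benjamini-Hochberg adjusted p below 0.05 over all genes with a change of 20% or more. The study used DESeq2 with independent filtering disabled, which was run as an alternative (version 1.42.0). CPM values are TMM-normalised. The length slope was the regression of log2(CPM + 0.5) on log2 transcript length over 13439 protein-coding genes with a mean of at least 1 CPM. The first principal component held 45.2% of variance and had |r| = 0.950 with the slope over 60 libraries. Permutation tests on single library measures used 100000 resamples. Further alternatives were DESeq2 size factors, filterByExpr, sex, the length slope, a replicate block, no fold change bound, the 2 groups alone, each sex alone and each library left out. The fits without F4 or M5 and the comparison with WT were added after the data were seen. The code was tested on simulated counts.

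The rule for named genes took *Htt*, every gene called except 1 that is not reported here (it counts among the 29 calls), the 12 genes with the smallest p in LacQ140 against WT + IPTG, the 5 genes with the smallest p in LacQ140_2M against LacQ140_A (not described further), and in each list up to 4 members with the smallest p and, for cells foreign to cortex, the member with the highest CPM. Not every list member it took is described. *Plin4*, *Lipe*, *Acsl1*, *Ucp1* and *Cd4*, and the genes named for the sexes and for LacQ140_2M against WT were chosen after their values were seen. The comparison, the members and the lists were chosen with earlier results of these data known. P-values over 10 mice a group measure the spread between mice.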

Additional observations from a re-analysis of the deposited data

Results flagged for a closer look

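In 208 checks of a group of 10 libraries, 46 had 1 library far from the other 9 by Dixon's criterion. Chance gives this in about 1 of 20 groups, but the genes checked include the 25 called genes with over 50% of their LacQ140_2M sum in 1 library, so the number cannot be read against that share. Of the 46, 9 were F4 and 20 were M5 of LacQ140_2M.

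F4 stood apart in *Adipoq* (25.3 CPM), *Fabp4* (77.3), *Cfd* (146), *Cidec* (19.2), *Ifi27l2a* (150), *Adig* (5.13), *Hp* (8.26), the complement gene *C3* (1.31) and the summed adipocyte list (435). M5 stood apart in *Cd8b1* (6.44 CPM), *Gimap3* (7.89), *Cd3g* (4.12), *Ms4a4b* (18.0), *Cd8a* (6.19), *Trbc1* (5.72), *Ccl5* (25.0), *Spn* (2.74), *Cd2* (5.01), *Gzmb* (3.06), *Cd3d* (9.23), *Il2rb* (7.80), *Nkg7* (6.02), *Klrk1* (2.49), *Slfn1* (2.74), *Ly6c2* (9.03), *Il18r1* (2.71), *Lck* (12.0), the summed T cell list (151) and the summed choroid plexus list (1631).

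Among the other LacQ140_2M libraries, M2 was far above its group in the mitochondrial *mt-Atp8* (1188 CPM) and the mitochondrial genome list (130514), and M4 in the hippocampal list (95.4). In LacQ140 most of the values that stood apart were low. They were *Cfd* in F3 (0.0516 CPM), *Cd8a* in F3 (0.181), *Il2rb* in F3 (0.361), *Gm2446* in M3 (0.145), *Gzmb* in F2 (0.0807), *Gm5537* in F1 (0.469), *Adig* in F1 (0.0469), *Cidec* in M2 (0.0240) and *Nkg7* in F4 (0.506). Also apart in LacQ140 were the antisense *Gm48678* in M1 (2.28 CPM), the prolactin gene *Prl* in F2 (6.51), the peroxisomal *Ehhadh* in M3 (5.84), the meningeal fibroblast list in F2 (134.7) and, below its group, the neurofilament list in M3 (389.9).

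The difference of LacQ140_2M from LacQ140 was itself different between females and males, by the interaction term in edgeR without F4 and M5, for *Arrdc2* (1.44), *Sgk1* (1.39) and *Ovol2* (0.98 on the log2 scale). With all libraries 0 genes were called, and the adjusted p of these 3 lay between 0.0699 and 0.103. F4 had the lowest *Arrdc2* and *Sgk1* of the LacQ140_2M females. Lowering and the absence of IPTG were not tested apart within each sex.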

How the results depend on the processing

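The 29 calls in LacQ140_2M against LacQ140 became 0 in DESeq2, 3 in DESeq2 without replacement of outlying counts, 1 with the genes kept by filterByExpr, 2 with only the 2 groups compared, 12 in females (4 without F4) and 14 in males (0 without M5). They became 2 without F4 and M5, and 4 with the length slope added to that fit. Leaving out 1 library at a time gave 10 to 32 calls. The lowest was without M5 of LacQ140_2M, and 20 were left without F4. With a replicate block the calls numbered 13, with 30 in LacQ140_2M against WT + IPTG and 9 in LacQ140_2M against LacQ140_A. The labels share only replicate numbers: the deviations of 10 pairs correlated at −0.27 to 0.51, with 5 over 0.1 and 2 libraries closest to their own number.

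In LacQ140 against WT + IPTG the 31 calls became 64 in DESeq2, 55 with filterByExpr, 130 with the length slope and 441 with only the 2 groups. In LacQ140_2M against WT + IPTG the 56 became 33 in DESeq2, 16 with filterByExpr, 325 with the slope and 18 without F4 and M5. WT against WT + IPTG had 15 calls in DESeq2 and 128 with the slope. Lowering beyond IPTG absence had 1 call in DESeq2, 3 with the slope and 1 without F4 and M5. The 29 calls in LacQ140_2M against LacQ140_A became 0 in DESeq2, 1 with filterByExpr, 99 with the slope and 1 without F4 and M5. LacQ140_2M against WT had 98 with the slope and 6 without F4 and M5. The sex difference had 3 without F4 and M5. The other 47 counts stayed within 1.5 times.

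The following log2 fold changes of single genes in LacQ140_2M against LacQ140 turned their direction. With the length slope, itself lowest in F4, *Adipoq* was −1.27, *Cfd* −11.17, *Cidec* −1.37 and *Cldn14* −0.17. In males, *Adipoq* was −0.41, *Fabp4* −1.04, *Abhd1* 0.092, *Enpp6* 0.060 and *Prl* 0.46. In females, *Cd8b1* was −2.05, *Cd8a* −0.40, *Trbc1* −0.041, *Gzmb* −0.035, *Il2rb* −0.28, *Nkg7* −1.14, *Slfn1* −0.85 and *Il33* −0.019. Without F4 and M5, *Fabp4* was −0.42, *Ms4a4b* −0.64, *Ccl5* −0.056, *Cd3d* −0.030, *Il2rb* −0.051, *Nkg7* −0.71, *Adig* −1.37, *Il18r1* −1.31 and *Cldn14* −0.0054. In DESeq2, *Fabp4* was −0.31, *Ms4a4b* −0.45, *Ccl5* −0.10, *Gm5537* −3.32, *Il2rb* −0.21, *Nkg7* −0.90, *Adig* −0.58 and *Il18r1* −1.23. Leaving out 1 library at a time, *Fabp4* ran from −0.29 to 5.30, *Ms4a4b* from −0.49 to 4.13, *Ccl5* from −0.10 to 4.11, *Il2rb* from −0.16 to 3.47, *Nkg7* from −0.72 to 3.44, *Adig* from −1.38 to 7.23, *Il18r1* from −1.01 to 4.31 and *Cldn14* from −0.064 to 0.13. Beyond F4, M5 and the samples left out, the cause was not tested. Of the other values of single genes, 204 kept their direction and lost the call and 3 gained one. The gains were *Tsc22d3* and *Ddit4* in females and *Ciart* with the slope (0.52, adjusted p = 0.0156). A planned fit without libraries above 10 times the median of the adipocyte or T cell list found 0 such libraries and gave no value.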
